A study of Mus musculus with 10 samples.

Results

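Idi1, Hmgcs1, Fdps, Fdft1, Sqle, Lss, Cyp51 and Dhcr7 encode 8 enzymes of cholesterol and isoprenoid synthesis. Their transcripts were compared in the hippocampus of old mice between calorie restriction and a control diet. The 8 genes were measured by 11 probe sets, out of 8251 genes on the array that have a probe set annotated with a single symbol. A probe set is a group of short oligonucleotides designed against 1 transcript. The members are all probe sets whose platform annotation gives 1 of these 8 symbols and no other. The genes were chosen with the diet comparison of these same arrays known, and Idi1 stood among its clearest differences, so the diet differences of the 8 genes are given here as a description and without p-values. Of the 11 probe sets 9 passed the filter on dim signal, and 2 were given by their values only: the single probe set of Dhcr7 and 1 of the 4 of Fdps.

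Total RNA of the hippocampus came from 10 male C57BL/6 mice aged 30 months, 5 of them calorie restricted and 5 fed the control diet, with each mouse on its own Affymetrix array. The sources used here do not state how severe the restriction was or when it began. The signal is the MAS5 intensity on a linear scale, with nearly the same trimmed mean on every deposited array. The array medians still differed: on the log2 scale they were 7.25 to 7.69 in calorie restricted and 7.79 to 7.92 in control mice, without overlap. In bulk tissue, fewer cells of a type and less RNA per cell cannot be told apart.

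The pathway starts from acetyl-CoA. Its first part, the mevalonate pathway, builds the isoprene units isopentenyl diphosphate and dimethylallyl diphosphate, which are joined into farnesyl diphosphate. From there one branch runs through squalene and lanosterol to cholesterol, and another supplies the lipid anchors of small GTPases, dolichol and ubiquinone. The blood-brain barrier keeps plasma cholesterol out, so the brain makes its own, in the adult largely in astrocytes, and oligodendrocytes use much of it for myelin. When sterols in the endoplasmic reticulum are low, SREBP transcription factors move to the nucleus and switch on the genes of the whole pathway, together with NF-Y and Sp1.

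Because SREBP, NF-Y and Sp1 bind beside the transcription start, the promoters of 2 genes are shown: Idi1, the 1 gene of the 8 that passed the array-wide threshold, and Hmgcs1, a classical SREBP target that did not. Both windows hold 250 bases before to 50 bases after the start and come from RefSeq on GRCm38.p6, plus strand, at chr13:8885356-8885655 for Idi1 and chr13:119690101-119690400 for Hmgcs1. These windows come from the annotation and not from the arrays. Capitals mark NF-Y boxes (CCAAT on either strand) and the sterol regulatory element (TCACNCCAC on either strand).
Idi1 promoter: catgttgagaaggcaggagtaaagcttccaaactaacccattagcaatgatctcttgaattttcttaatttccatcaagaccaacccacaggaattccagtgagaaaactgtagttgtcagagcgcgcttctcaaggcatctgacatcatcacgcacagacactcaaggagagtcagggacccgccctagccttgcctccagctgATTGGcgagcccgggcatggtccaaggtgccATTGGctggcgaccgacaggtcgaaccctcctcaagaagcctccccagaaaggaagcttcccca
Hmgcs1 promoter: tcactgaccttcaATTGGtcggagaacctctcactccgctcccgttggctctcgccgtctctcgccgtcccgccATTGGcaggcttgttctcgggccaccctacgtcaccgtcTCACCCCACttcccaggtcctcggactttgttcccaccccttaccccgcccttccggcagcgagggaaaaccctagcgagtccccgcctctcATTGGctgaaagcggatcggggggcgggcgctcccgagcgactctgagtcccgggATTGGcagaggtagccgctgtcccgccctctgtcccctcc

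RefSeq promoters were matched for 5 of the 8 genes, Idi1, Hmgcs1, Lss, Cyp51 and Dhcr7, with 7 windows in all, 3 of them for Dhcr7. The Hmgcs1 window held 1 sterol regulatory element, which began 137 bases before the start, 4 NF-Y boxes and 3 Sp1 boxes (GGGCGG on either strand). The Idi1 window held 2 NF-Y boxes and 1 Sp1 box, and these letters of the sterol regulatory element were not in it. The element was in 1 of the 7 windows, and in 1.24% of all 32851 RefSeq promoters of that length. NF-Y boxes were in 5 of the 7 and in 37.4% of all promoters, and Sp1 boxes in 6 of the 7 and in 35.7%. The 3 motifs did not overlap each other in the Idi1 and Hmgcs1 windows. A match describes the letters and is not a measured binding site.

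RNA quality and spike-in signal moved with the diets, which touches every value below. When RNA is broken, the 3′ control probe set of Gapdh reads far above the 5′ one. This ratio was 82.7 and 160.7 in calorie restricted replicates 3 and 5 and 1.24 to 1.98 in the other calorie restricted mice, against 0.815 to 1.53 in control mice. For Actb it was 2.32, 2.38 and 4.18 in calorie restricted replicates 1, 2 and 4, against 1.05 to 1.61 in control mice. The covariate used below is the mean log2 3′ minus 5′ difference of both genes. It was 0.78 to 6.11 in calorie restricted and -0.12 to 0.45 in control mice, without overlap. So leaving out replicates 3 and 5 does not level RNA quality between the diets, and the covariate is partly confounded with diet. The spike-in controls averaged 12.41 to 13.67 on calorie restricted arrays, against 10.50 to 11.80 on control arrays, on the log2 scale. Hippocampal markers such as Nrgn and Nptx1 were present, with median signals of 2199 and 737.3 in calorie restricted mice and 2615 and 2033 in control mice. Prox1, a marker of dentate granule neurons, lay below the filter, with medians of 65.1 under calorie restriction and 115.3 under the control diet. In this fit, 11.8% of the 7453 probe sets tested passed (limma, Benjamini-Hochberg adjusted p under 0.05), 4.11% higher and 7.74% lower in calorie restricted mice.

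Of the 9 tested member probe sets 1 passed, that of Idi1, and 8 did not, beside 11.8% passing over the array. As the genes were chosen on this contrast, nothing is read from that share. The log2 changes printed here compare calorie restricted with control mice after -0.15, the median over the 7453 probe sets, was taken off. The array-wide call tests the change before that subtraction. Relative changes were above 0 in 7 of the 9 tested member probe sets and below 0 in 2, and several of the 9 belong to Fdps. The 2 probe sets under the filter were both below 0, Dhcr7 at -0.57 and Fdps 162217_r_at at -0.25, so the tally depends on the filter. Over the 7 genes with a tested probe set, each by its brightest one, the median relative change was 0.29, while the middle 50% of all tested probe sets ran from -0.42 to 0.40. This median was 0.18 under quantile normalization, 0.17 without calorie restricted replicate 3 and 0.47 with RNA quality as a covariate.

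**Figure D1:**
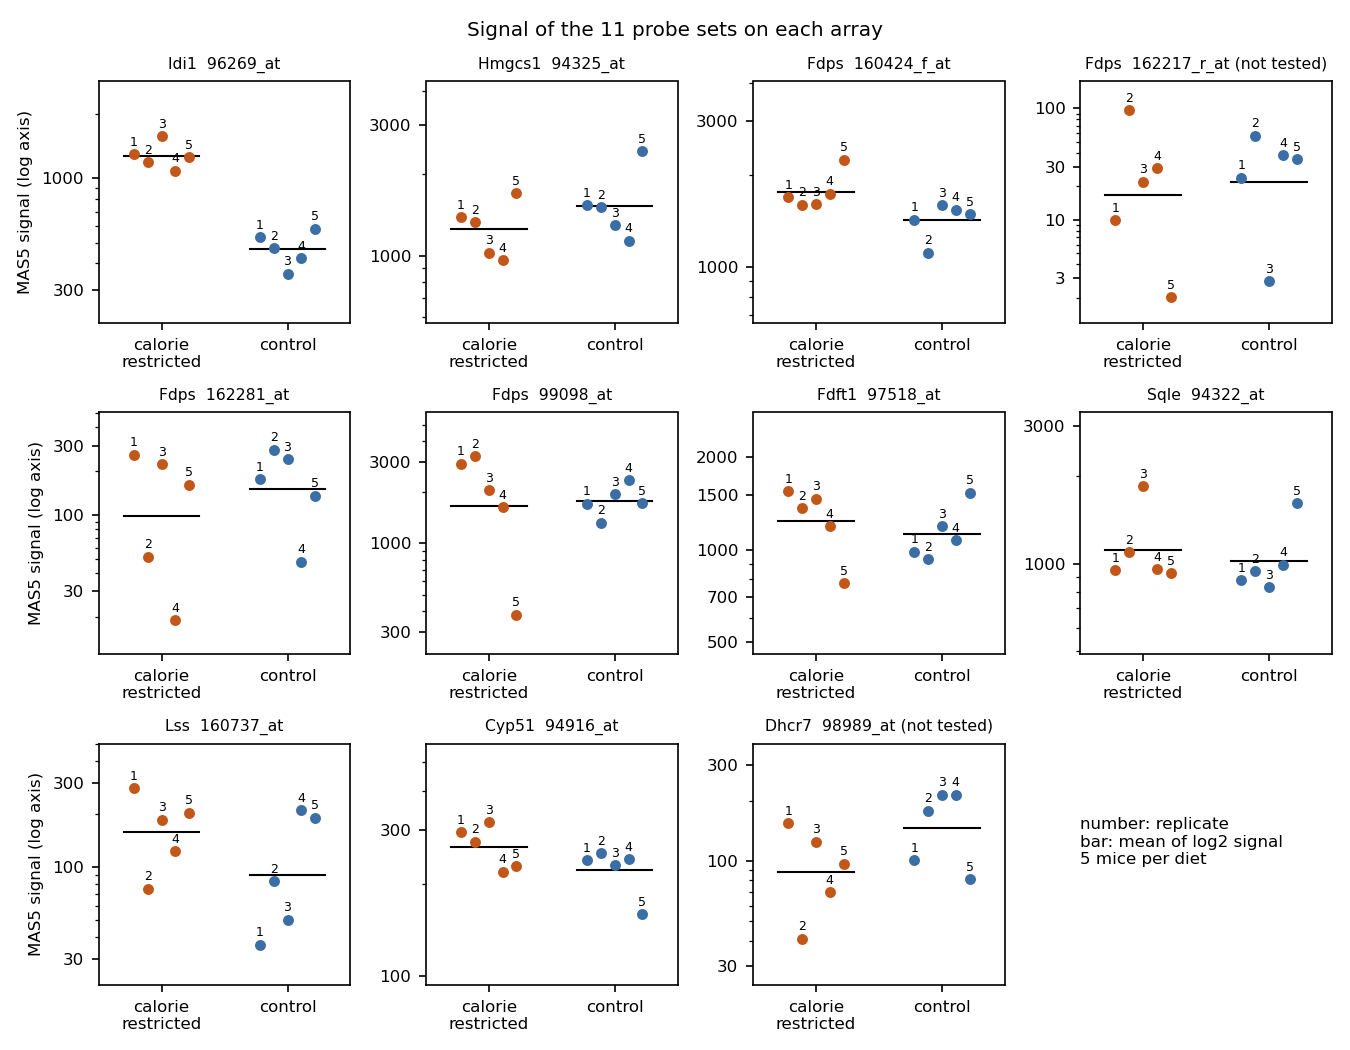
MAS5 signal (log axis) of the 11 probe sets on each of the 10 arrays, with calorie restricted mice left of control mice, the replicate number beside each point and a bar at the mean of the log2 signals. Idi1 separates the diets widely, Fdps 160424_f_at barely, and the other 9 probe sets overlap.

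Idi1 encodes isopentenyl diphosphate isomerase, which turns isopentenyl diphosphate into dimethylallyl diphosphate, the starter unit of every longer isoprenoid. Its signal was 1302, 1190, 1580, 1086 and 1260 in calorie restricted replicates 1 to 5, against 531, 473, 358, 425 and 583 in control replicates 1 to 5. Every calorie restricted mouse lay above every control mouse, and the groups did not overlap. The diets did not overlap in 14.3% of all tested probe sets. The mean was 1284 ± 185 under calorie restriction, against 473.9 ± 87.9 under the control diet (SD, n = 5 mice per diet). On the log2 scale the fitted change was 1.45, a 2.73-fold difference, and relative to the array median it was 1.60 ± 0.18 (SE), with a 95% interval of 1.20 to 2.0. Without calorie restricted replicates 3 and 5, the 2 arrays of lowest RNA quality, it was 1.46, and with RNA quality as a covariate it was 1.40. Over the 21 other settings tried the relative change ran from 1.40 to 1.67. Since the gene was chosen on this contrast, neither its call nor this range is support for the difference.

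Hmgcs1 encodes the cytosolic HMG-CoA synthase, which makes the substrate of HMG-CoA reductase at the entry of the pathway. Its signal was 1388, 1332, 1027, 966 and 1696 in calorie restricted replicates 1 to 5, against 1537, 1508, 1295, 1138 and 2413 in control mice. The groups overlapped, and the highest value of each diet was in its replicate 5. The relative log2 change was -0.13 ± 0.23 (SE), with a 95% interval of -0.63 to 0.37, and -0.30 with RNA quality as a covariate. Without control replicate 5 it was 0.03, so its direction rests on that mouse.

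Fdps encodes farnesyl diphosphate synthase, which joins isoprene units into farnesyl diphosphate at the branch point of the pathway. Its 4 probe sets did not give 1 picture. Probe set 160424_f_at had 1699, 1604, 1611, 1743 and 2252 in calorie restricted mice, against 1431, 1118, 1601, 1545 and 1496 in control mice. These groups did not overlap, though the lowest calorie restricted and the highest control value were nearly equal, and the relative change was 0.46 ± 0.16 (SE), interval 0.10 to 0.82, or 0.27 under quantile normalization. The letter f in its name marks probes shared with other transcripts of a family.

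Probe set 99098_at of Fdps had 2944, 3269, 2063, 1627 and 380 in calorie restricted mice, against 1712, 1323, 1951, 2360 and 1722 in control mice. Calorie restricted replicates 1 and 2 lay above every control mouse and replicate 5 far below, and the log2 SD reached 1.25 under calorie restriction, against 0.30 under the control diet. Its relative change was 0.04 ± 0.48 (SE), 0.60 without calorie restricted replicates 3 and 5, 0.55 without replicate 5 alone and 1.01 with RNA quality as a covariate. Without calorie restricted replicate 1 or 2 it was -0.17 or -0.19. Replicate 5 had the highest Gapdh 3′ to 5′ ratio, and its value for 160424_f_at was the highest of all 10 mice. The part of RNA quality in this spread was not tested beyond these values.

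The other 2 Fdps probe sets were dim. Probe set 162281_at ran from 19 to 260 in calorie restricted and from 48 to 281 in control mice, with a relative change of -0.46 ± 0.73 (SE). The change was -1.29 with RNA quality as a covariate and 0.14 without calorie restricted replicate 4, the 1 setting of 16 tested in which it was above 0. The filter acts on mean log2 signal, and the lowest geometric mean tested was 115.1, against 122.2 for this probe set. Probe set 162217_r_at, below the filter, ran from 2.02 to 97 in calorie restricted and from 2.82 to 57 in control mice, with wide overlap.

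**Figure D2:**
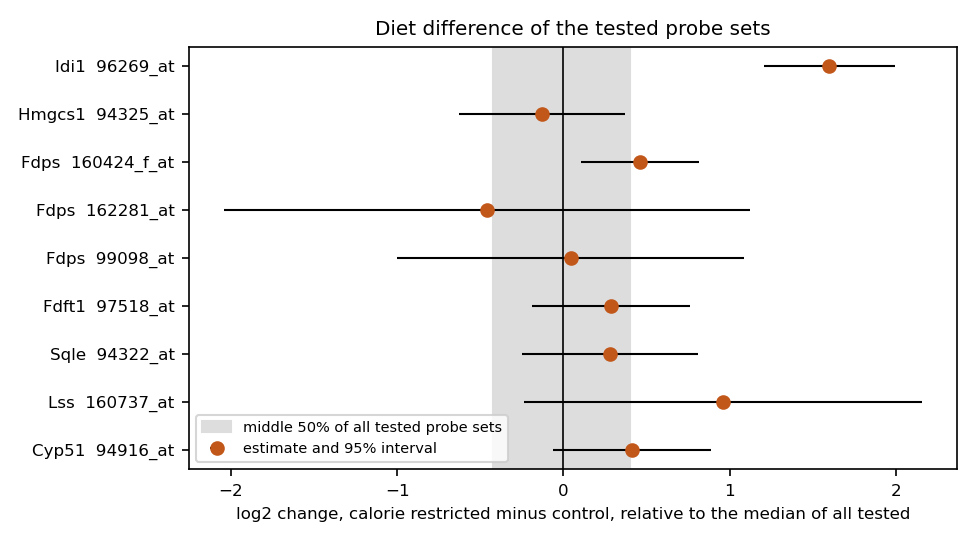
Relative log2 change (calorie restricted minus control, less the median of all tested probe sets) of the 9 tested member probe sets, with 95% intervals. The grey band holds the middle 50% of all tested probe sets, from -0.42 to 0.40. The interval of Idi1, 1.20 to 2.0, lies outside the band, and the other 8 intervals reach into it.

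Fdft1 encodes squalene synthase, which joins 2 farnesyl diphosphates and commits them to sterols. Its signal was 1548, 1362, 1461, 1190 and 778 in calorie restricted replicates 1 to 5, against 985, 929, 1191, 1073 and 1530 in control mice. Both the lowest value and the highest value of all 10 mice were in calorie restricted mice, and the groups overlapped. Its relative change was 0.29 ± 0.22 (SE), with an interval of -0.19 to 0.76, and it was 0.18 under quantile normalization and 0.47 with RNA quality as a covariate.

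Sqle encodes squalene epoxidase, a rate-limiting step of the sterol branch. Its signal was 948, 1095, 1849, 957 and 928 in calorie restricted mice, against 875, 943, 827, 992 and 1615 in control mice. In each diet 1 mouse stood well above the other 4, replicate 3 of the calorie restricted and replicate 5 of the control group. The relative change was 0.28 ± 0.24 (SE), with an interval of -0.25 to 0.81, and 0.02 with RNA quality as a covariate and 0.08 without calorie restricted replicates 3 and 5.

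Lss encodes lanosterol synthase, which folds the squalene epoxide into the first sterol. Its signal was 281, 75, 186, 123 and 204 in calorie restricted mice, against 36, 83, 50, 211 and 191 in control mice. The values overlapped, and the geometric mean of 119.5 was just above the lowest tested. The relative change was 0.96 ± 0.55 (SE), and its interval of -0.24 to 2.16 was wider than that of Idi1. It was 0.63 without control replicate 1 and 0.60 with RNA quality as a covariate. Under quantile normalization it was 1.22, and without calorie restricted replicate 2 it was 1.24. Lss was tested in 16 of the 22 settings. It fell under the filter in the others, such as without calorie restricted replicate 1, 3 or 5, or without replicates 3 and 5 together.

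Cyp51 encodes the demethylase that acts on lanosterol. Its signal was 295, 274, 318, 219 and 228 in calorie restricted mice, against 238, 251, 230, 240 and 159 in control mice. Calorie restricted replicates 1, 2 and 3 lay above every control mouse, and replicates 4 and 5 within the control range. Relative to the array median the change was 0.41 ± 0.22 (SE), with an interval of -0.06 to 0.89, and 0.28 without control replicate 5.

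Dhcr7 encodes the reductase that makes cholesterol from its immediate precursor, and its probe set fell just under the filter on mean log2 signal, with a geometric mean of 113.7. Its signal was 155, 41, 125, 70 and 97 in calorie restricted mice, against 101, 178, 214, 214 and 81 in control mice. The groups overlapped, and it was left out of the fit.

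**Figure D3:**
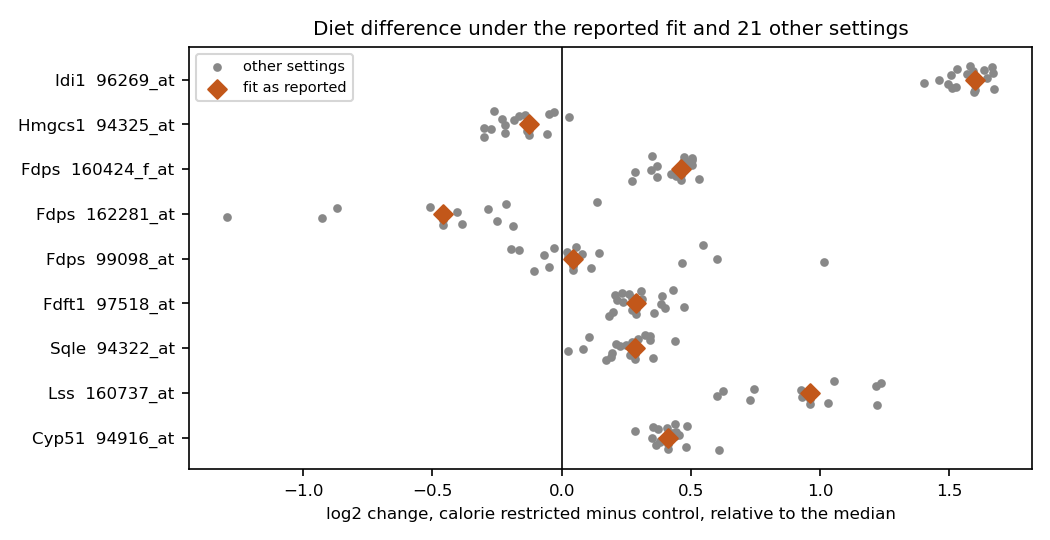
Relative log2 change of the 9 tested member probe sets in the fit as reported (diamonds) and in 21 other settings (grey points; fewer where a probe set fell under the filter). Idi1 stays between 1.40 and 1.67, while Hmgcs1 and 2 Fdps probe sets have points on both sides of 0.

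Arrays were also compared within each diet, which leaves the diet contrast out: each log2 signal had its own diet's mean taken off. Control replicate 5 was the highest control mouse for Idi1, Hmgcs1, Fdft1 and Sqle, at 0.32, 0.66, 0.45 and 0.67 above the control mean, and the lowest for Cyp51, at -0.47. Calorie restricted replicate 3 was the highest of its diet for Idi1, Sqle and Cyp51, at 0.31, 0.73 and 0.27. Replicate 4 was the lowest of its diet for Idi1, Hmgcs1 and Cyp51. The 7 brightest member probe sets, 1 per gene, form 21 pairs, of which 13 had a Pearson correlation of these deviations above 0 over the 10 arrays, with a median of 0.20. The highest was 0.79 between Fdps and Fdft1 and the next 0.73 between Idi1 and Sqle, while Hmgcs1 and Cyp51 had -0.56. Without calorie restricted replicates 3 and 5 the first of these was 0.42, the highest was 0.81 between Idi1 and Hmgcs1, and the lowest was -0.75 between Sqle and Cyp51, so the order of the pairs rests on those 2 arrays. All pairs share the same arrays and RNA, and the deviations of Fdps (99098_at) and of Idi1 correlated with those of the 3′ to 5′ difference at -0.76 and 0.39. These correlations are a description.

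The mean deviation of the 7 genes was then set against every other tested probe set with 1 symbol. The 5 genes most like it were Hars, a histidyl-tRNA synthetase, at a Pearson correlation of 0.95 over the 10 arrays, Pus1, a pseudouridine synthase, at 0.92, Cd52, a leukocyte surface glycoprotein, at 0.90, and Ssx2ip and Sfpq, a splicing factor, at 0.86 each. The 2 least like it were Man2a1, a Golgi mannosidase, at -0.86 and H2ax, a histone variant, at -0.83. The middle 90% of all tested probe sets ran from -0.52 to 0.57. The 7 genes, each a part of the mean, were at 0.82 (Fdft1), 0.71 (Sqle), 0.63 (Lss), 0.59 (Fdps), 0.54 (Idi1), 0.16 (Hmgcs1) and 0.06 (Cyp51). The mean is not scaled, so the widely spread Lss and Fdps 99098_at weigh most, and it does not stand for all 7 genes. The mean deviation itself correlated at -0.19 with that of the 3′ to 5′ difference.

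**Figure D4:**
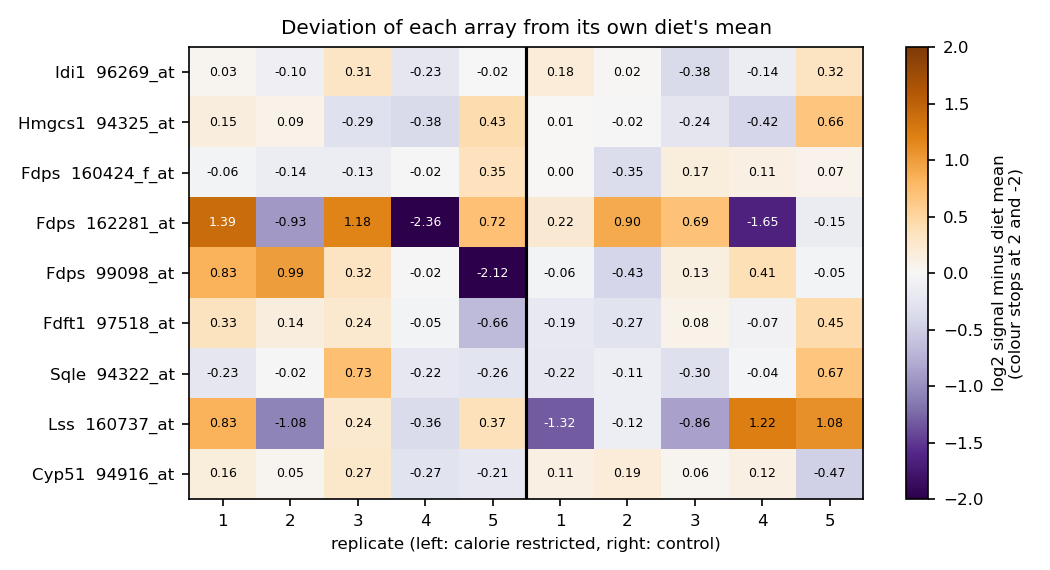
Log2 signal of each array minus the mean of its own diet for the 9 tested member probe sets, with calorie restricted replicates 1 to 5 on the left and control replicates 1 to 5 on the right. Control replicate 5 is above its diet's mean in Idi1, Hmgcs1, Fdft1, Sqle, Lss and, by little, Fdps 160424_f_at, and Fdps 99098_at is at -2.12 in calorie restricted replicate 5.

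The rest of the pathway was read from 6 textbook lists with 77 genes besides the 8, of which 37 had a tested probe set. Of these 1 rose and 0 fell, and 36 did not pass, beside 10.5% of 5695 genes over the array when each gene is read by its brightest probe set, 4.09% higher and 6.44% lower. Before adjustment 5 of the 37 had a limma p under 0.05, beside 29.8% of genes over the array: Npc1, Acly and Elovl6, which were higher, and Nsdhl and Lcat, which were lower. The median relative change of the 37 was 0.12. The gene that rose was Npc1, which carries cholesterol out of late endosomes and lysosomes. Its signal was 1857, 1619, 2260, 2093 and 2316 in calorie restricted mice, against 1231, 1061, 1352, 1145 and 1182 in control mice, without overlap. The relative change was 0.91 ± 0.16 (SE, limma adjusted p = 0.0153), and the adjusted p ran from 0.00689 to 0.0643 over the other settings. With RNA quality as a covariate the change was 0.66 and the gene did not pass (limma adjusted p = 0.0643). Npc2, the soluble partner of Npc1, had 0.02 ± 0.21 (SE, limma adjusted p = 0.693). In the list of sterol sensing and uptake, 1 of 5 measured genes rose and 0 fell, with a median of 0.15, and the LDL receptor relative Lrp1 had -0.27 ± 0.27 (SE, limma adjusted p = 0.305). The list's median was -0.07 under quantile normalization and 0.06 without calorie restricted replicate 3. Lrp1 turned to 0.28 with RNA quality as a covariate and to 0.10 without calorie restricted replicates 3 and 5, and Npc2 to -0.08 under quantile normalization.

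In the mevalonate list 2 genes besides the 8 were measured and neither passed. Mvd, the decarboxylase that makes the substrate of Idi1, had 433, 323, 255, 312 and 17 in calorie restricted mice, against 53, 70, 171, 133 and 75 in control mice. Calorie restricted replicates 1 to 4 lay above every control mouse and replicate 5 below all of them. The relative change was 1.13 ± 0.78 (SE, limma adjusted p = 0.409), and without calorie restricted replicate 5 it was 1.96 (limma adjusted p = 0.0138). That replicate was the only calorie restricted one below the control mice, and it had the highest Gapdh 3′ to 5′ ratio. Leaving out the array that goes the other way favours a smaller p, so the value without it is no support for a difference. The geometric mean of Mvd, 127.9, was near the lowest tested, 115.1, and Mvd fell under the filter without calorie restricted replicate 1 or 4. It passed in 3 of the 19 settings in which it was tested. Mvk, the mevalonate kinase, had -0.12 ± 0.31 (SE, limma adjusted p = 0.563) in a probe set marked r, with fewer usable probes, and turned to 0.44 with RNA quality as a covariate and to 0.07 without calorie restricted replicate 5. Another Mvk probe set, 95632_f_at, lay below the filter and was not tested. It went the other way, with 54, 63, 117, 36 and 410 in calorie restricted mice, against 23, 17, 32, 24 and 27 in control mice.

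Of 6 further sterol branch genes measured, 0 passed and the median relative change was -0.03, or -0.11 to 0.09 over the other settings. Nsdhl, a dehydrogenase of sterol demethylation downstream of Cyp51, had 552, 782, 188, 295 and 146 in calorie restricted mice at its brightest probe set, against 757, 836, 888, 661 and 814 in control mice. Only calorie restricted replicate 2 reached the control range, and replicates 3 and 5 were lowest. The relative change was -1.13 ± 0.40 (SE, limma adjusted p = 0.0538). A dimmer Nsdhl probe set, 98630_at, picked after its values were seen, had -1.30 ± 0.42 and passed (SE, limma adjusted p = 0.0432), and another, 93868_at, had -1.26 ± 0.54 (SE, limma adjusted p = 0.0996). The call of 98630_at stood in 10 of 22 settings, the reported one and the threshold of 0.10 included. It was lost under quantile normalization, with centred arrays, without the filter and with the replicate block. It was also lost without any 1 control mouse and without calorie restricted replicate 3 or 4. Without calorie restricted replicates 3 and 5 the 3 probe sets had -0.54, -0.88 and -0.64, of which 98630_at passed (limma adjusted p = 0.0259). The RNA quality covariate gave -0.21, -0.56 and -0.22, where none passed (limma adjusted p = 0.535, 0.350 and 0.752). The brightest one passed without calorie restricted replicate 1 (-1.33, limma adjusted p = 0.0353) and without replicate 2 (-1.44, limma adjusted p = 0.0163). Sc5d, a sterol desaturase, had -0.51 ± 0.34 (SE, limma adjusted p = 0.200).

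**Figure D5:**
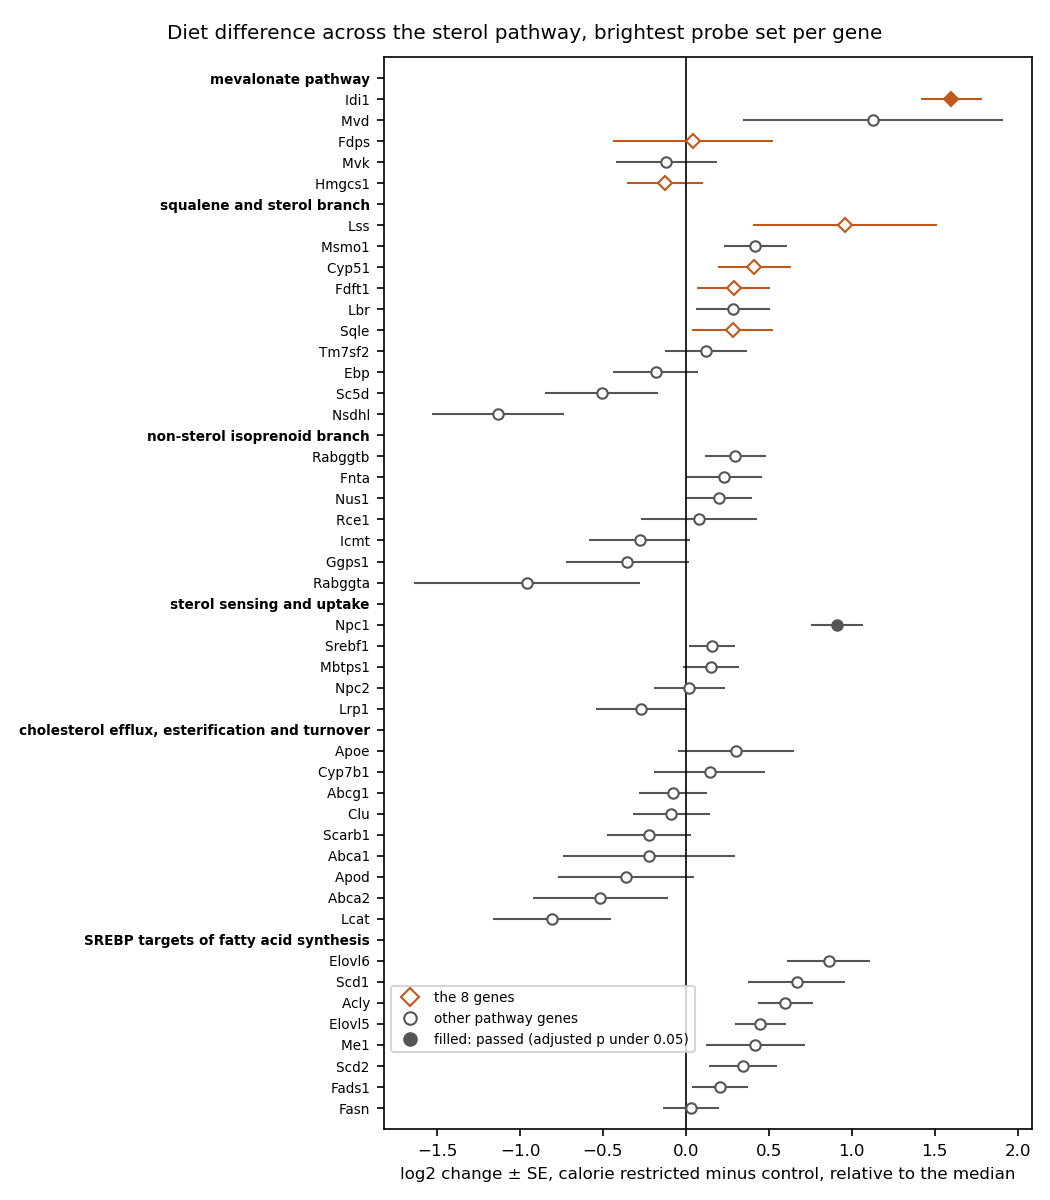
Relative log2 change ± SE of each measured gene in the 6 pathway lists, by its brightest probe set, with the 8 genes as diamonds, other genes as circles and filled symbols for those past the array-wide threshold. Only Idi1 and Npc1 are filled, and all 8 fatty acid synthesis genes lie at or right of 0.03, while under quantile normalization 6 of them were above 0.

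Of 7 genes of the non-sterol isoprenoid branch 0 passed, with a median of 0.08, or -0.15 to 0.18 over the other settings. Rabggta, a subunit of the enzyme that prenylates Rab proteins, had -0.96 ± 0.68 (SE, limma adjusted p = 0.281) and Icmt, which methylates prenylated proteins, -0.28 ± 0.30 (limma adjusted p = 0.346). Rabggta turned to 0.42 with RNA quality as a covariate and to 0.04 without calorie restricted replicates 3 and 5, and Icmt was -0.09 without control replicate 2. Of 9 genes of efflux, esterification and turnover 0 passed, with a median of -0.22, which became 0.26 with RNA quality as a covariate and 0.09 without calorie restricted replicates 3 and 5. Lcat, which esterifies cholesterol on lipoproteins, had -0.81 ± 0.36 (SE, limma adjusted p = 0.0917), though its dimmer probe set 161759_r_at had 0.95 ± 0.44 (limma adjusted p = 0.227), and Abca2, a lipid transporter, -0.52 ± 0.41 (limma adjusted p = 0.276). With RNA quality as a covariate Lcat was at -0.16 and Abca2 turned to 0.48, and without calorie restricted replicates 3 and 5 they were at -0.41 and 0.15.

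Of 8 SREBP targets of fatty acid synthesis 0 passed (limma), beside 10.5% of genes over the array, while their relative changes ran from 0.03 to 0.86 with a median of 0.43. The median was 0.29 under quantile normalization, 0.25 without calorie restricted replicates 3 and 5, and 0.16 with RNA quality as a covariate, with 6 of the 8 above 0 in the first and the last of these. Elovl6, a fatty acid elongase, ranged from 519.7 to 897.7 in calorie restricted and from 268.8 to 595.4 in control mice, with a relative change of 0.86 ± 0.25 (SE, limma adjusted p = 0.0822). Acly, which supplies cytosolic acetyl-CoA to both sterols and fatty acids, ranged from 1542 to 2363 in calorie restricted and from 1204 to 1531 in control mice, without overlap, with a relative change of 0.60 ± 0.16 (SE, limma adjusted p = 0.0917). Both passed when arrays were centred on their median (limma adjusted p = 0.0441 for Elovl6 and 0.0413 for Acly). With RNA quality as a covariate their changes were 0.51 and 0.28, and without calorie restricted replicates 3 and 5 they were 0.66 and 0.39, where neither passed.

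Markers of cell types that make or use cholesterol were read the same way (limma, adjusted p under 0.05), beside 10.5% of genes passing over the array, 4.09% higher and 6.44% lower. Of 10 astrocyte markers 8 were measured, 3 fell, 0 rose and 5 did not pass, with a median relative change of -0.05. Their summed signal ran from 22611 to 29062 under calorie restriction and from 16896 to 22290 under the control diet, without overlap. The sums given here add linear signals, so the brightest markers weigh most in them and they are no measure of cell number. The markers that fell were Aqp4, Fgfr3 and Atp1b2, with relative log2 changes of -1.39, -1.96 and -2.12. Of 10 oligodendrocyte markers 8 were measured and 5 did not pass, while Ugt8a, Cldn11 and Mal fell by 1.71, 0.64 and 0.47. Their sum ran from 20361 to 28640 under calorie restriction and from 24403 to 27167 under the control diet. Of 7 neuron markers 6 were measured, and Thy1 rose while Syt1, Nefl and Map2 fell. Their relative log2 changes ran from -3.40 to 0.79, with a median of -0.59 over the 6. The neuron sums were 30184 to 41307 under calorie restriction and 26188 to 37648 under the control diet. Of 9 markers of hippocampal pyramidal and granule neurons 8 were measured, and Tbr1 rose while Neurod6 and Nptx1 fell. Relative changes in this list ran from -2.54 to 1.37, with a median of -0.29. The sums were 4969 to 8946 under calorie restriction and 6355 to 11369 under the control diet. All 8 microglia markers were measured, Cx3cr1 and Cd68 fell and 6 did not pass, with relative changes from -2.10 to 1.31. Of 4 measured choroid plexus and ependyma markers Folr1 and Foxj1 fell, with sums of 912 to 15353 under calorie restriction and 3242 to 11575 under the control diet, a wide spread within both diets. Of 4 measured markers of striatum and thalamus Tcf7l2 fell and 3 did not pass, with relative changes from -0.59 to 1.37. The sums of this list were 3163 to 7483 under calorie restriction and 2824 to 4463 under the control diet. Of 4 measured endothelial markers 0 passed, also before adjustment. No signal in the table was 0, and the lowest was 0.123. The part of these cells in the values of the 8 genes was not tested.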

How the data were processed

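Hippocampal total RNA of 5 calorie restricted and 5 control mice was measured on 1 array each. The deposited values are MAS5 intensities on a linear scale, per the submitters' processing notes, and the sources used here name no version. In the deposited table the mean without the lowest and highest 2% was 500.2 to 500.4 on every array. Values under 1 (41 of 124880) were set to 1 and log2 was taken. The 66 control probe sets and probe sets with a mean under the 40th percentile were dropped, leaving 7453 tested. Diets were compared with limma 3.58.1 in R 4.3.3 (lmFit, eBayes with trend, no covariate), and Benjamini-Hochberg adjusted p under 0.05 over all 7453 was a call. The fit was also run on simulated data with independent normal noise of equal spread in both diets. Those data held no RNA quality difference between the diets, so they do not test the calls for it. Symbols came from the platform annotation, updated by gene number: 10833 probe sets had 1 symbol, 10817 matched RefSeq, and 396 had several and were not named.

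The members and lists were chosen with earlier results of these data known. The text names all 8 genes, each pathway gene called plus up to 2 more per list with the smallest p, and the 5 most and 2 least like genes. Markers are named where called, and Nrgn, Nptx1 and Prox1 to check the tissue. Settings varied were normalization, filter, offset, variance model, array weights, RNA quality, replicate number, threshold, probe sets per gene and arrays left out. Labels call the replicates biological, and the design gives 1 mouse per array. The number of arrays limits the precision. Background and detection calls were not analysed here.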

Additional observations from a re-analysis of the deposited data

Results flagged for a closer look

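Within-diet outliers were sought in log2 signal in 50 groups of 5 arrays. The gap of the extreme array to its neighbour is divided by the range of the group, and 0.71 is the limit for 5 arrays. Signals are printed below on the linear scale. Chance alone marks about 1 group in 20, and 5 were marked. Fdps 160424_f_at was highest in calorie restricted replicate 5, at 2252 (gap ratio 0.755), the array with the highest Gapdh 3′ to 5′ ratio. Sqle was highest in calorie restricted replicate 3, at 1849 (0.760), and in control replicate 5, at 1615 (0.728). Cyp51 was lowest in control replicate 5, at 159 (0.801), the mouse with the highest control signal of Idi1, Hmgcs1, Fdft1 and Sqle. Mvd was lowest in calorie restricted replicate 5, at 17 (0.837), and the other calorie restricted mice had 255 to 433.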

How the results depend on the processing

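The relative change of Idi1, a description of the contrast it was chosen on, ran from 1.40 to 1.67. The count over all probe sets, 883, was 333 with RNA quality as a covariate, 540 with the replicate block and 1627 at a threshold of 0.10. Without 1 array it ran from 268 to 1278, namely 268, 272 and 289 without control replicates 2, 3 and 4, 414 and 546 without control replicates 1 and 5, and 405 and 566 without calorie restricted replicates 3 and 4. With p under 0.05 and no adjustment, 2352 would pass. Higher calls were 34.7% of all, 53.2% under quantile normalization, 68.4% with arrays centred on the median and 46.5% with RNA quality as a covariate. The count of other pathway genes, 1, was 3 with centred arrays, 2 with an offset of 32, 3 with array weights, 3 without calorie restricted replicates 3 and 5, 5 at a threshold of 0.10, and 1 to 2 without 1 array. Npc1 was lost with RNA quality as a covariate, where Apoe was the 1 called (1.14). Nsdhl was called with array weights (-0.88) and the offset (-1.05), and Mvd with array weights (1.95), without calorie restricted replicates 3 and 5 (2.06) and without replicate 5 (1.96). The median pair correlation was 0.20, and 0.27 without calorie restricted replicates 3 and 5. The cause of these shifts was not tested. Replicate numbers share no source in the labels, and same-numbered arrays correlated at -0.08 to 0.17, so the block is not a pairing. Npc1 was called with the block (limma adjusted p = 0.0400). Among the members the 2 dimmest tested probe sets had the widest intervals.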

Other observations

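Apoe, the main carrier of cholesterol between astrocytes and neurons, had signals of 40602, 35973, 17582, 32125 and 9366 in calorie restricted replicates 1 to 5, against 26025, 21868, 20116, 19861 and 20210 in control mice. Calorie restricted replicates 1, 2 and 4 lay above every control mouse and replicates 3 and 5 below all of them. Its relative change was 0.30 and did not pass, and without replicates 3 and 5 it was 0.86 (limma adjusted p = 0.0148). The gene was picked after its values were seen.

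Clu, another lipoprotein component of astrocytes, had 2 tested probe sets that differed. The f-marked 161294_f_at had 4009, 4013, 6423, 4088 and 10510 in calorie restricted mice, against 3387, 2682, 2549, 2595 and 3020 in control mice, and passed at 1.08 (limma adjusted p = 0.0416). It passed in 11 of 22 settings, the reported one included, and was lost under quantile normalization, with the replicate block, without any 1 control mouse, and under the RNA quality covariate (0.39, limma adjusted p = 0.326). Its adjusted p ran from 0.0280 to 0.326. The brighter 95286_at had 7019, 5615, 5098, 6020 and 2777 against 6536, 6309, 5151, 5372 and 6788 in control mice, and had -0.09. In calorie restricted replicate 5 the first was the highest and the second the lowest of all 10 mice, as with the 2 bright Fdps probe sets. Both genes were picked for this after their values were seen.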
